A study of Mus musculus with 6 samples.

Results

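Toll-like receptors (TLRs), their co-receptors and their adaptors were examined in bone marrow-derived basophils (BMBAs) given IL-3 or PBS. The 10 genes Tlr1, Tlr2, Tlr4, Tlr6, Tlr7, Tlr9, Cd14, Ly96, Myd88 and Ticam1 were taken by their symbols from the 37043 gene symbols of the count table. All 10 were listed there, and 9 had enough counts to be tested. Tlr9 did not.

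BMBAs are basophils grown in culture from mouse bone marrow, here of wild-type C57BL/6J mice. Both groups shared 7 days of culture with 0.3 ng/mL of a cytokine that the labels leave unnamed and the study's methods give as IL-3, followed by bead enrichment with an antibody to CD49b. For 6 h the cells then received either control PBS or IL-3 at 10 ng/mL, in 3 cultures each, as part of the question of whether IL-3 makes basophil precursors leave the marrow. The sources used here give neither the age of the mice nor whether the PBS cultures still contained IL-3 during these hours. Enrichment on CD49b does not make a culture pure.

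TLRs are sensors of microbial products. TLR2 pairs with TLR1 or TLR6 at the cell surface to bind bacterial lipoproteins, while TLR4 binds lipopolysaccharide together with MD-2, the product of Ly96, after CD14 has handed the ligand over. TLR7 and TLR9 sit in endosomes and bind single-stranded RNA and unmethylated CpG DNA. All of these receptors signal through MyD88 to NF-kappaB, and TLR4 also signals through TRIF, the product of Ticam1, to interferon genes.

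The 6 libraries held 10537540 to 13999287 counts. Levels are given as CPM, in which counts are divided by library size after TMM scaling (trimmed mean of M values), for replicates 1, 2 and 3 in that order, with the mean ± SD of n = 3 cultures. Differences were tested with the edgeR quasi-likelihood test across 16675 genes, with p adjusted over all of them after Benjamini and Hochberg. The p-values measure the spread between these cultures. Basophil markers were abundant in every library, with 8 of 8 listed genes detected and summed levels of 10249.7 to 11444.1 CPM with PBS and 15297.2 to 15494.3 CPM with IL-3. Markers of monocytes and macrophages were abundant too, at 11967.4 to 12926.8 CPM with PBS and 6258.1 to 6895.6 CPM with IL-3 over 12 listed genes, so the label basophil does not cover all RNA in these libraries. Most of this sum was Lyz2, with means of 10456 CPM with PBS and 5348.2 CPM with IL-3. The other 11 genes summed to means of 2110.3 and 1125.4 CPM. Bulk RNA cannot tell fewer cells of a type from less RNA per cell, and this applies to every value that follows.

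The TLR set did not move in a single direction. Of the 9 tested members, 3 were called higher with IL-3 (Tlr1, Tlr2 and Myd88), 3 were called lower (Tlr7, Cd14 and Ly96) and 3 did not pass the test (Tlr4, Tlr6 and Ticam1). Over all genes tested, 38.2% were called at an adjusted p below 0.05, 18% as higher and 20.2% as lower. The 3 PBS and 3 IL-3 libraries did not overlap for 6 of the 9 members, against 48.2% of all genes. The median log2 fold change of the 9 members was 0.15, beside 0.00 over all genes tested.

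**Figure D1:**
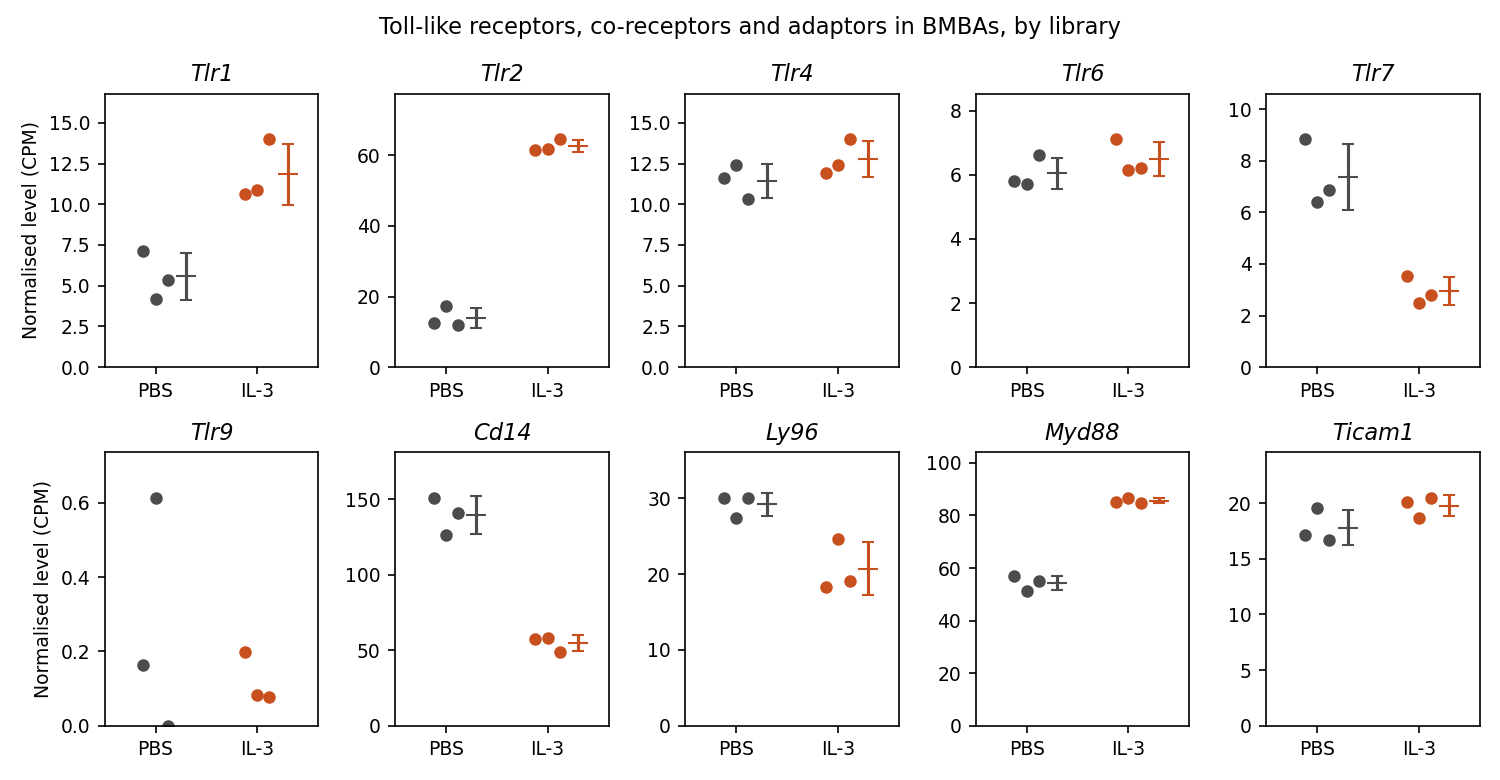
Normalised level (CPM, linear axes from 0) of each of the 10 genes in the 3 PBS (grey) and 3 IL-3 (orange) libraries, where points are libraries and bars are the mean ± SD (omitted for Tlr9, which has few counts). The groups separate upward for Tlr1, Tlr2 and Myd88 and downward for Tlr7, Cd14 and Ly96, and they overlap for the other 4.

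The largest change among the members was that of Tlr2, the shared partner of the lipoprotein receptors (chromosome 3, 83836272 to 83841767, minus strand, GRCm38). Tlr2 stood at 12.4, 17.2 and 12 CPM with PBS and at 61.6, 61.7 and 64.6 CPM with IL-3. Every IL-3 library lay far above the highest PBS library. The means were 13.8 ± 2.90 and 62.6 ± 1.71 CPM, a 4.53-fold rise (log2 fold change 2.18, SE 0.114, adjusted p = 3.06e-10, edgeR). Only 160 of the 16675 tested genes had a larger log2 fold change. Its promoter in the RefSeq table (GRCm38.p6) held overlapping matches to the kappaB consensus, the binding motif of NF-kappaB, which was found in 3.9% of 32851 promoters of the same length on either strand. The 30 bases around the match are shown because Tlr2 rose most, with the matched letters in capitals, on the minus strand at chr3:83841762-83841791.
Tlr2: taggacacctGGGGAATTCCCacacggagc

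The match began 173 bases before the RefSeq start and lay just upstream of the annotated start of the gene at 83841767. The RefSeq start itself lies inside the annotated gene. The match is a description of letters and was not tested for binding.

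Tlr1, which joins TLR2 to bind triacylated lipoproteins, also rose (chromosome 5, 64924679 to 64933563, minus strand). Its levels were 7.12, 4.21 and 5.37 CPM with PBS and 10.6, 10.9 and 14 CPM with IL-3, without overlap. The log2 fold change was 1.09 (SE 0.191, adjusted p = 0.000293, edgeR), on 48 to 87 counts per PBS library and 107 to 181 per IL-3 library. The match to the STAT5 motif TTCNNNGAA at the later of its RefSeq starts is shown in capitals because STAT5 is the main transcription factor activated by IL-3. This motif occurred in 7.02% of all promoters on either strand. The 250 bases before the other Tlr1 start and before the Tlr2 start held no match to it. Binding was not tested. The 30 bases lie on the minus strand at chr5:64932909-64932938, and the match falls inside an annotated exon of Tlr1.
Tlr1: gagtagctagcTTCATCGAAgcagagatgc

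Tlr6, which joins TLR2 to bind diacylated lipoproteins, lies 18468 bases from Tlr1 on the same strand (chromosome 5, 64952031 to 64960097). It measured 5.81, 5.70 and 6.61 CPM with PBS and 7.11, 6.16 and 6.20 CPM with IL-3, and the groups overlapped. Its log2 fold change of 0.10 (95% interval -0.26 to 0.46, adjusted p = 0.686, edgeR) did not pass the test, and its sign turned to -0.06 when libraries were scaled by their totals. The promoter windows of Tlr6 held no match to TTCNNNGAA or to the kappaB consensus, which says only that these letters are not in those 250 bases.

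Tlr1 and Tlr6 share sequence, so part of their reads could have been counted for either gene. Of the 50-base stretches of the protein-coding transcripts, untranslated parts included, 14.8% in Tlr1 and 12.3% in Tlr6 also occurred in the other gene, while the other 8 members shared at most 0.0185% with any gene. The summed level of both, an alternative chosen after the data were seen, was 12.9, 9.91 and 12 CPM with PBS and 17.7, 17.1 and 20.2 CPM with IL-3. The sum rose by 0.66 on the log2 scale (SE 0.134, adjusted p = 0.00103, edgeR). This value does not depend on how reads were split between Tlr1 and Tlr6, provided each shared read was counted once. The sources used here do not say how shared reads were counted.

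The partners of TLR2 therefore stood in a changed proportion to it. Per kilobase of transcript, the level of Tlr1 was 0.422 ± 0.166 of that of Tlr2 with PBS and 0.188 ± 0.025 with IL-3. The ratio of Tlr6 to Tlr2 was 0.370 ± 0.0911 with PBS and 0.0851 ± 0.0084 with IL-3. Both ratios were lower in all 3 IL-3 libraries than in any PBS library. By contrast, the ratio of Tlr1 to Tlr6 was 1.49, 0.898 and 0.989 with PBS and 1.81, 2.15 and 2.75 with IL-3. In all, 8 ratios between genes were compared, and each had a two-sided exact permutation p of 0.1 (0.1 after adjustment over the 8), the smallest that 3 against 3 libraries allow, so none could pass a threshold of 0.05.

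Neutrophils and monocytes are both known to express Tlr2, and some neutrophil markers differed between the groups. Of 10 listed neutrophil genes, 7 were tested, 3 were called higher, 1 was called lower and 3 were not called. Among all genes, 18% were called higher and 20.2% lower. The 3 not called were S100a8, S100a9 and Ngp, whose groups overlapped. The summed level of the 10 genes was 122 to 159 CPM with PBS and 195 to 259 CPM with IL-3. The most abundant of them were Lcn2, Retnlg and Mpo. Retnlg, a secreted resistin-like protein, averaged 11.3 CPM with PBS and 69.2 CPM with IL-3, Lcn2, an iron-sequestering protein, averaged 41.5 and 57.6 CPM, and Mpo, the granule peroxidase, averaged 42.9 and 27.7 CPM. The defining marker Ly6g was at 0.176 CPM with PBS and 2.30 CPM with IL-3. The part of these cells in the rise of Tlr2 and Tlr1 was not tested.

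The lipopolysaccharide receptor showed another pattern, in which the receptor gene itself did not pass the test and both co-receptor genes fell. Tlr4 (chromosome 4, 66827584 to 66930284, plus strand) measured 11.6, 12.4 and 10.3 CPM with PBS and 11.9, 12.4 and 14 CPM with IL-3. The groups overlapped, and the log2 fold change of 0.16 had a 95% interval of -0.12 to 0.45 (adjusted p = 0.376, edgeR). It was 0.00 when libraries were scaled by their totals.

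Cd14, the surface protein that passes lipopolysaccharide to TLR4 (chromosome 18, 36725067 to 36726798, minus strand), stood at 151, 126 and 141 CPM with PBS and at 57.3, 58.3 and 48.8 CPM with IL-3. The groups were far apart. Cd14 was 2.54-fold lower with IL-3, with means of 139 ± 12.4 and 54.8 ± 5.22 CPM and a log2 fold change of -1.35 (SE 0.0810, adjusted p = 1.82e-09, edgeR). Ly96 (chromosome 1, 16688051 to 16709611, plus strand), whose product MD-2 holds the lipid in the receptor complex, stood at 30.1, 27.4 and 30.1 CPM with PBS and at 18.3, 24.7 and 19.1 CPM with IL-3. All 3 IL-3 libraries lay below the PBS libraries, by less than for Cd14, and the log2 fold change was -0.50 (SE 0.117, adjusted p = 0.00332, edgeR).

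Per kilobase, the ratio of Cd14 to Tlr4 was 30.5 ± 4.57 with PBS and 10.8 ± 1.80 with IL-3, and that of Ly96 to Tlr4 was 16.6 ± 2.27 and 10.5 ± 2.10. The ratio of Ly96 to Cd14 was 0.547 ± 0.0247 with PBS and 0.982 ± 0.140 with IL-3. The size of such a ratio rests on the lengths of the principal transcripts, and its fold between the groups does not. With the length of all exons, Ly96 and Cd14 averaged 28.6 and 80.3 CPM per kilobase with PBS and 20.3 and 31.6 with IL-3. Each of the 3 ratios separated the groups without overlap, at the exact permutation p of 0.1 given for the family of 8.

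Of the endosomal receptors, Tlr7, the receptor of single-stranded RNA (chromosome X, 167304929 to 167330558, minus strand), fell. It measured 8.84, 6.40 and 6.87 CPM with PBS and 3.55, 2.50 and 2.79 CPM with IL-3, without overlap. The level was 2.52-fold lower, with a log2 fold change of -1.33 (SE 0.213, adjusted p = 0.000118, edgeR). Its relative Tlr8 lies 40600 bases away on the same strand and measured 18.8, 16.1 and 14.2 CPM with PBS and 15.7, 15.9 and 15.5 CPM with IL-3. The log2 fold change of Tlr8 was -0.06 (95% interval -0.33 to 0.21, adjusted p = 0.744, edgeR). The ratio of Tlr7 to Tlr8 per kilobase was accordingly 0.396 ± 0.0413 with PBS and 0.165 ± 0.0311 with IL-3, without overlap and at the same exact permutation p of 0.1.

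Tlr9, the receptor of CpG DNA (chromosome 9, 106222598 to 106226883, plus strand), was near the limit of detection. It had 2, 7 and 0 counts with PBS and 2, 1 and 1 with IL-3, in all 9 of 33193977 and 4 of 37227410 counts. No library exceeded 0.614 CPM. The PBS library without a count could still have held 3 counts, or 0.264 CPM, by counting error alone. With so few counts, a difference between the groups was not tested.

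B cells and plasmacytoid dendritic cells are rich in TLR7 and TLR9, and their markers were low. The B cell transcription factor Pax5 was at 0.172 CPM with PBS and at 0.171 CPM with IL-3, while Cd79b, a subunit of the B cell receptor, was called lower, with means of 3.62 and 1.70 CPM. Over the 5 B cell genes listed, of which 3 were tested and 1 was called lower, the summed level was 6.22 to 9.07 CPM with PBS and 3.91 to 6.52 CPM with IL-3. The plasmacytoid marker Siglech was at 0.858 and 0.828 CPM. The summed level of the 5 plasmacytoid genes listed was 22.1 to 24.4 CPM with PBS and 10.3 to 13.6 CPM with IL-3, most of it from Tcf4, the only one of the 3 tested that was called lower. Tcf4, a transcription factor also found in other cells, averaged 19.4 and 9.21 CPM. Of the 6 conventional dendritic cell genes, 5 were tested and 1 was called lower, namely Clec9a, a receptor of dead cells, with means of 6.15 and 2.49 CPM. Their summed level was 85.2 to 89.6 CPM with PBS and 70.4 to 78.7 CPM with IL-3, and Cd209a was at 0 in every library. The part of these cells in the fall of Tlr7 was not tested.

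Of the adaptors, Myd88 (chromosome 9, 119335934 to 119341411, minus strand) was higher with IL-3. Its levels were 56.8, 51.3 and 54.9 CPM with PBS and 85.3, 86.8 and 84.9 CPM with IL-3, with little spread and no overlap. The means were 54.3 ± 2.78 and 85.6 ± 1.01 CPM, a 1.58-fold rise (log2 fold change 0.66, SE 0.0649, adjusted p = 7.55e-07, edgeR). The annotated span of Myd88 overlaps those of Acaa1a on the opposite strand and Slc22a14 on its own, and the sources used here do not say whether counting used the strand. Acaa1a, an enzyme of peroxisomal fat oxidation, went the other way, with a log2 fold change of -0.50.

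The stretch before the RefSeq start of Myd88 is shown because it held both a match to TTCNNNGAA, 46 to 38 bases before the start, and overlapping matches to TATAAA on both strands, both in capitals. The TATAAA matches lay 164 to 155 bases before the start. TATAAA, the core of the TATA box, occurred in 12.4% of all promoters. A window of Tlr6, which was not called, held 3 matches to it. Binding to these letters was not tested. The stretch lies inside the annotated span of Myd88, which begins on the minus strand at 119341411. It ends 24 bases before the RefSeq start, because bases nearer that start overlap an annotated exon. The 227 bases lie in no annotated exon, on the minus strand at chr9:119340042-119340268.
Myd88: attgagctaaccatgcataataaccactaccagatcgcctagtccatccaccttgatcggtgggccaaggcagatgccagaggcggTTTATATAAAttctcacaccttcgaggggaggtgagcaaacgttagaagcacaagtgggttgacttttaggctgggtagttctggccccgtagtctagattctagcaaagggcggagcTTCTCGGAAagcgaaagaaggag

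The promoter table matched 6 of the 10 members, with 8 windows. No window was searched for Tlr4, Tlr7, Cd14 and Ly96, which include all 3 members called lower. The motifs were therefore not compared between members called higher and lower. GAGGAA, a core of the motif of PU.1, a myeloid transcription factor, was found in windows of Tlr1, Tlr9 and Ticam1, and in 23.3% of all promoters on either strand.

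Ticam1, the adaptor of the TRIF branch (chromosome 17, 56269319 to 56276786, minus strand), did not pass the test. It measured 17.1, 19.6 and 16.7 CPM with PBS and 20.1, 18.7 and 20.5 CPM with IL-3, with overlap. Its log2 fold change was 0.15 (95% interval -0.09 to 0.39, adjusted p = 0.323, edgeR), and it was -0.01 with libraries scaled by their totals. The ratio of Myd88 to Ticam1 per kilobase was 4.69 ± 0.597 with PBS and 6.63 ± 0.413 with IL-3, higher in every IL-3 library, at the exact permutation p of 0.1 of the family of 8.

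**Figure D2:**
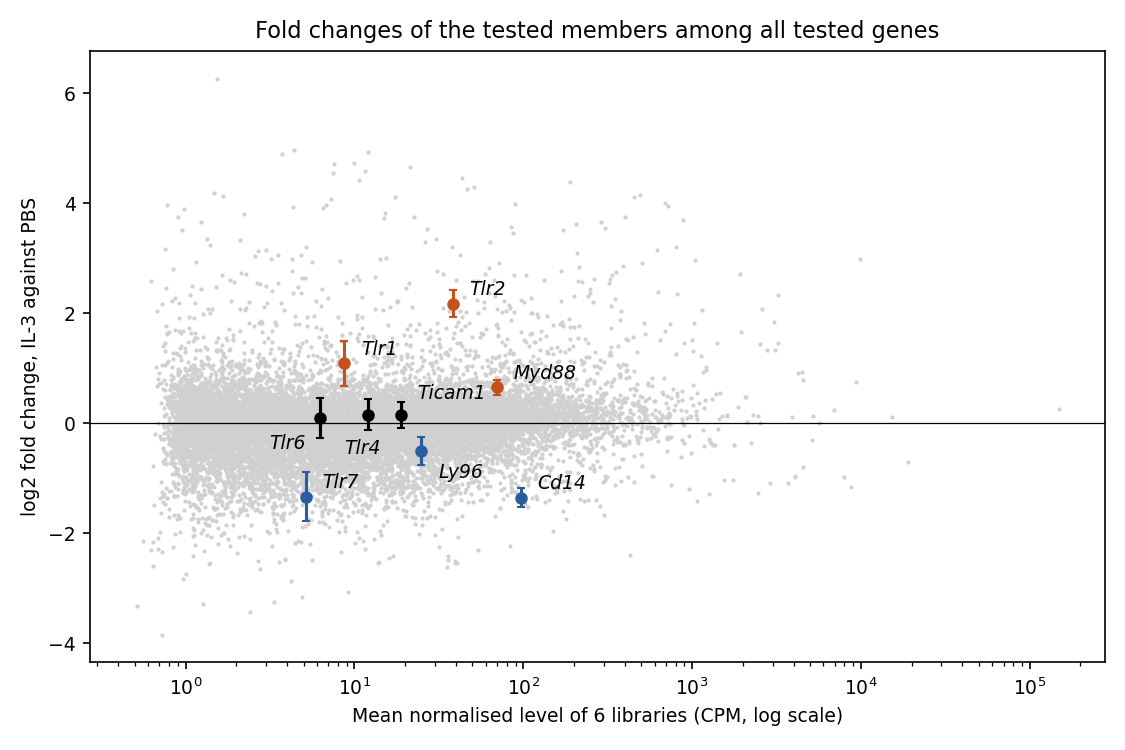
Log2 fold change (IL-3 against PBS) of the 9 tested members against their mean level (CPM, log scale), with 95% intervals, over all 16675 tested genes in grey. Orange points passed the test as higher, blue points as lower and black points did not pass. Tlr2 lies at 2.18, and Cd14 and Tlr7 lie at -1.35 and -1.33.

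The order of the genes by level per kilobase of transcript also differed between the groups. With PBS, Cd14 was the most abundant at 84.7 ± 7.58 CPM per kilobase, followed by Ly96 at 46.2 ± 2.44 and Myd88 at 27.7 ± 1.42. Ticam1 (5.95 ± 0.512), Tlr2 (4.59 ± 0.963) and Tlr4 (2.80 ± 0.255) followed. From Cd14 down to Ticam1, the ranges of neighbours over the 3 libraries did not overlap, and the ranges of Ticam1 and Tlr2 did, although Ticam1 was above Tlr2 within each library. Tlr7, Tlr1 and Tlr6 lay at 1.89 ± 0.331, 1.84 ± 0.484 and 1.64 ± 0.135 CPM per kilobase and did not differ beyond their spread. Tlr9 was last in both groups.

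With IL-3, Myd88 had the highest mean, 43.7 ± 0.513 CPM per kilobase of the principal transcript. Cd14 at 33.4 ± 3.18 and Ly96 at 32.7 ± 5.57 overlapped, and Tlr2 at 20.8 ± 0.566 stood clearly above Ticam1 at 6.60 ± 0.324. Tlr1 at 3.91 ± 0.633 now lay above Tlr4 at 3.13 ± 0.259, although by little more than the spread, and Tlr6 at 1.77 ± 0.145 and Tlr7 at 0.757 ± 0.140 came next. Both orders assume that reads cover transcripts evenly, which was not tested. In CPM not divided by length, Myd88 (54.3) was above Ly96 (29.2) with PBS. With IL-3, Tlr2 (62.6) was above Cd14 (54.8) on that scale. Several places in these orders also depend on the transcript length used. With the length of all exons of a gene, Myd88 at 33.1, 33.7 and 32.9 CPM per kilobase with IL-3 overlapped with Cd14 at 33.1, 33.7 and 28.2. Ly96 averaged 20.3 CPM per kilobase with IL-3 on that length and overlapped with Tlr2, and Tlr4 overlapped with Tlr7 and Tlr1 with PBS.

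**Figure D3:**
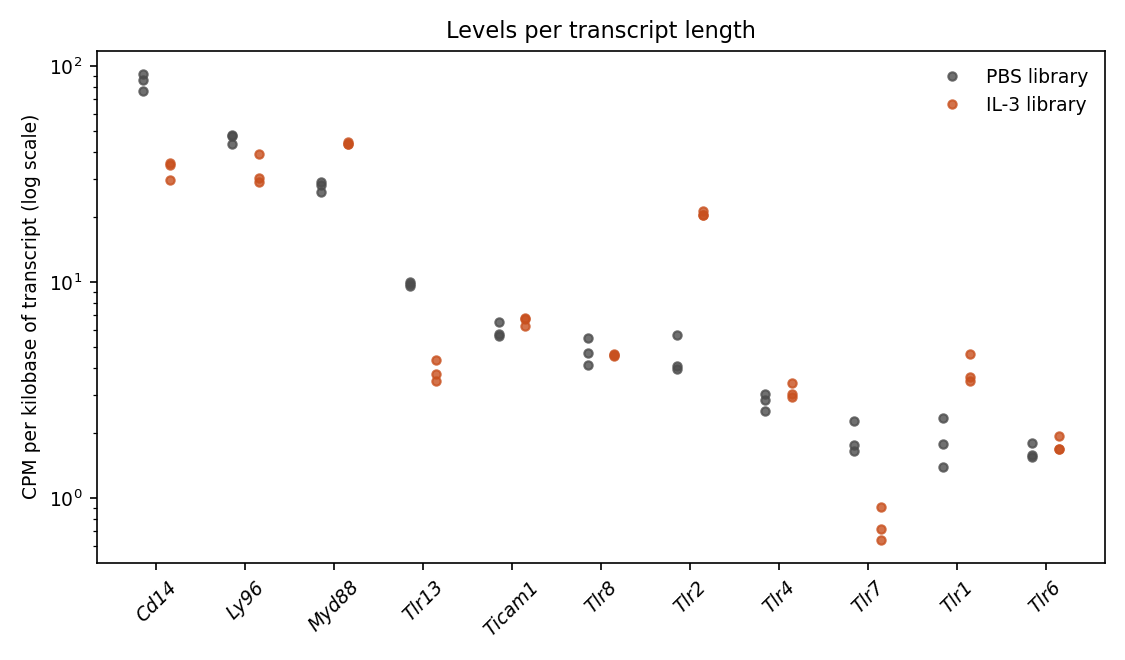
Level per kilobase of the principal transcript (CPM per kilobase, log scale) of 9 members and of Tlr8 and Tlr13, ordered by the PBS mean, with a point for each PBS (grey) and IL-3 (orange) library. Tlr9 is left out because it had a library at 0. Tlr2 moves from 4.59 to 20.8, and Cd14 from 84.7 to 33.4.

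Monocyte and macrophage markers fell together with Cd14, Tlr7 and Ly96. Of 12 listed genes, all were tested, 10 were called lower, 1 was called higher and 1 was not called, and their median log2 fold change was -0.94. The most abundant were Lyz2, lysozyme, at -0.97, C1qb, a subunit of complement C1q, at -1.06, and Cd68, a lysosomal glycoprotein, at -1.03. The exception was Adgre1, the gene of F4/80, at 0.53. Set against every 1000 CPM of these 12 markers, Cd14 was 11.1 CPM with PBS and 8.47 CPM with IL-3, Tlr7 was 0.586 and 0.453 CPM, and Ly96 was 2.33 and 3.21 CPM. On this scale the log2 ratios of IL-3 to PBS were -0.39 for Cd14, -0.37 for Tlr7 and 0.46 for Ly96, so that Ly96 fell by less than the markers did. Tlr2 had a log2 ratio of 3.14 on the same scale. The part of these cells in the fall of Cd14, Tlr7 and Ly96 was not tested.

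Basophil and mast cell markers were mostly higher with IL-3, as were Tlr1, Tlr2 and Myd88. Of 8 basophil genes, 6 were called higher, 1 was called lower and 1 was not called. Of 6 mast cell genes, 5 were called higher and 1 was not called, with a summed level of 872 to 976 CPM with PBS and 1479.3 to 1609.3 CPM with IL-3. Their part in the rise of Tlr1, Tlr2 and Myd88 was not tested either.

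**Figure D4:**
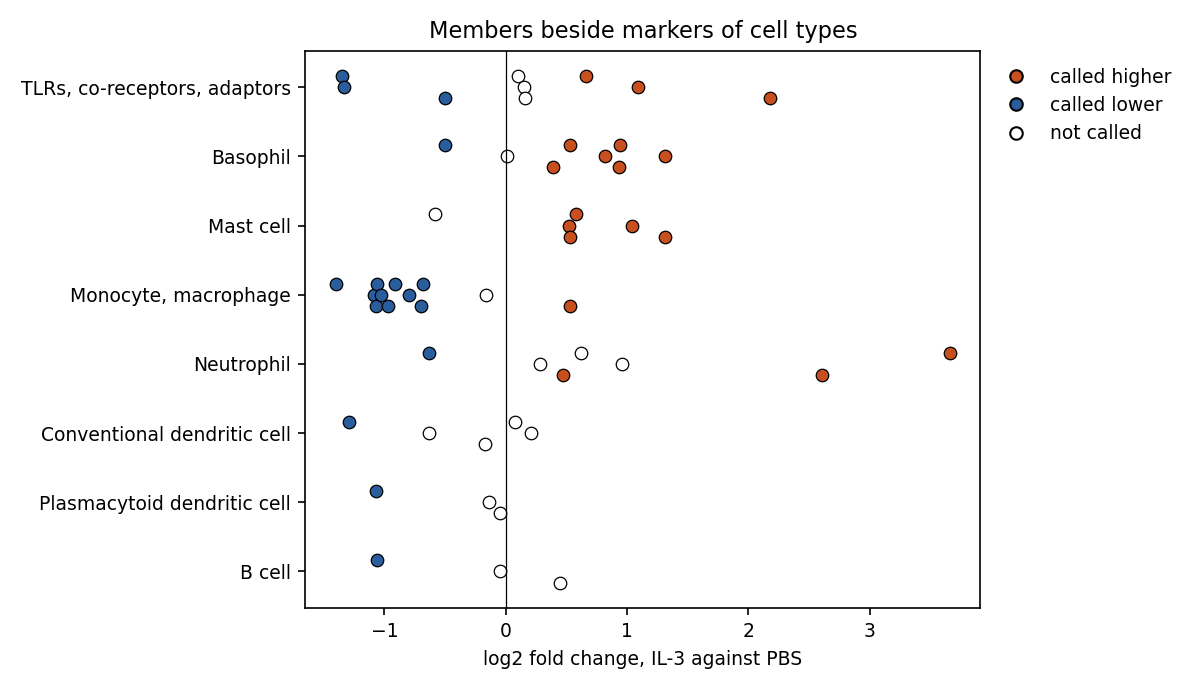
Log2 fold change (IL-3 against PBS) of the 9 tested members, in the top line, and of the tested markers of 7 cell types, where each point is a gene, orange was called higher, blue was called lower and white was not called. The markers of monocytes and macrophages lie mostly below 0, with a median of -0.94, and those of basophils and mast cells mostly above 0.

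The rest of the TLR pathway was described with a list of 60 further genes. Of these, 57 were tested, 19 were called higher, 19 were called lower and 19 did not pass, beside 18% and 20.2% called higher and lower among all genes. The early target genes were mostly higher and the other receptors were mostly lower.

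Among the other receptors and their partners, 5 of the 6 tested fell and none rose. Cd180, a TLR4-like surface receptor, measured 11.9, 14.7 and 13.7 CPM with PBS and 4.25, 5.50 and 4.27 CPM with IL-3, with a log2 fold change of -1.52 (SE 0.164, adjusted p = 2.02e-06, edgeR). Ly86, whose product MD-1 binds it as MD-2 binds TLR4, had a log2 fold change of -1.20 (adjusted p = 7.95e-06, edgeR). Tlr13, the mouse sensor of bacterial ribosomal RNA, was at 38.9, 40.7 and 39.8 CPM with PBS and 15.2, 14.2 and 17.7 CPM with IL-3, with a log2 fold change of -1.34 (SE 0.102, adjusted p = 3.14e-08, edgeR). All 3 genes separated the groups without overlap. Tlr3, a sensor of double-stranded RNA, and Tlr12, a sensor of profilin, were scarce, with means of 1.46 and 1.82 CPM with PBS, and fell by 1.57 and 1.79 on the log2 scale. Tlr5 and Tlr11 had too few counts to test, and Tlr11 had none in any library. Without IL-3 replicate 1, the log2 fold change of Tlr12 was -2.66. The summed monocyte and macrophage markers fell beside these receptors, with a log2 ratio of IL-3 to PBS of -0.96, and set against that sum the log2 ratios were -0.38 for Tlr13, -0.56 for Cd180 and -0.24 for Ly86. The part of these cells in the fall of the receptors was not tested.

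Genes of ligand transfer and receptor trafficking gave 4 falls and 1 rise among 8 tested. Unc93b1, the chaperone that carries nucleic acid-sensing TLRs to endosomes, measured 59.1, 55.1 and 51.9 CPM with PBS and 25.2, 27.2 and 22.0 CPM with IL-3, with a log2 fold change of -1.16 (SE 0.0936, adjusted p = 6.52e-08, edgeR). Tlr7, Tlr13 and Tlr3 were also called lower, and Tlr8 was not called. Set against the summed monocyte and macrophage markers, the log2 ratio of Unc93b1 was -0.20. Hsp90b1, the chaperone gp96 that folds TLRs, rose by 0.60 on the log2 scale (SE 0.0492, adjusted p = 7.32e-08, edgeR). Lbp, the serum protein that extracts lipopolysaccharide, averaged only 1.94 and 1.07 CPM, and its log2 fold change of -0.86 (adjusted p = 0.0386, edgeR) was no longer called in 9 of 14 alternative settings, where adjusted p ranged from 0.0156 to 0.163 over all 14.

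Among other adaptors, Ticam2, which links TLR4 to TRIF, and Pik3ap1, an adaptor to phosphoinositide kinase, fell by 0.80 and 0.67 on the log2 scale (adjusted p = 0.00849 and 1.25e-05, edgeR). Tirap, which links TLR2 and TLR4 to MyD88, had a log2 fold change of 0.32 and did not pass (adjusted p = 0.0531, edgeR). Sarm1 was not tested. Of 17 kinases and ubiquitin ligases, 6 rose, 2 fell and 9 did not pass. Peli1, a ubiquitin ligase, and Tab2, a subunit of the TAK1 complex, rose by 0.84 and 0.66, and Irak2, a kinase recruited by MyD88, fell by 0.65 on the log2 scale.

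Of 4 interferon regulatory factors, 1 rose, 1 fell and 2 did not pass. Irf8, a transcription factor of monocyte and dendritic cell development, measured 37.0, 34.7 and 33.4 CPM with PBS and 10.2, 11.6 and 10.3 CPM with IL-3, with a log2 fold change of -1.71 (SE 0.108, adjusted p = 3.14e-09, edgeR). Set against the same markers, its log2 ratio was -0.75. Irf3, which acts after TRIF, rose by 0.40 on the log2 scale (adjusted p = 0.000357, edgeR). The 9 negative regulators were divided, with 4 higher, 4 lower and 1 not called. Sigirr, an inhibitory receptor, was 1.99-fold lower, while Zc3h12a, an RNase that destroys inflammatory transcripts, and Tollip, an inhibitor of IRAK kinases, rose by 0.52 and 0.48 on the log2 scale.

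Among 10 early target genes of TLR signalling, many of which other stimuli also induce, 7 rose, 1 fell and 2 did not pass. Il1b, the gene of interleukin-1 beta, measured 9.90, 6.84 and 10.4 CPM with PBS and 81.5, 72.0 and 73.9 CPM with IL-3, an 8.35-fold rise (log2 fold change 3.06, SE 0.119, adjusted p = 8.11e-12, edgeR). Ptgs2, the gene of cyclooxygenase-2, rose 6.55-fold (adjusted p = 3.86e-09, edgeR), and Ccl4, a chemokine of monocytes and T cells, rose 5.27-fold (adjusted p = 1.47e-13, edgeR). All 3 separated the groups without overlap. Acod1, the enzyme that makes itaconate, fell by 0.81 on the log2 scale (adjusted p = 0.000379, edgeR).

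**Figure D5:**
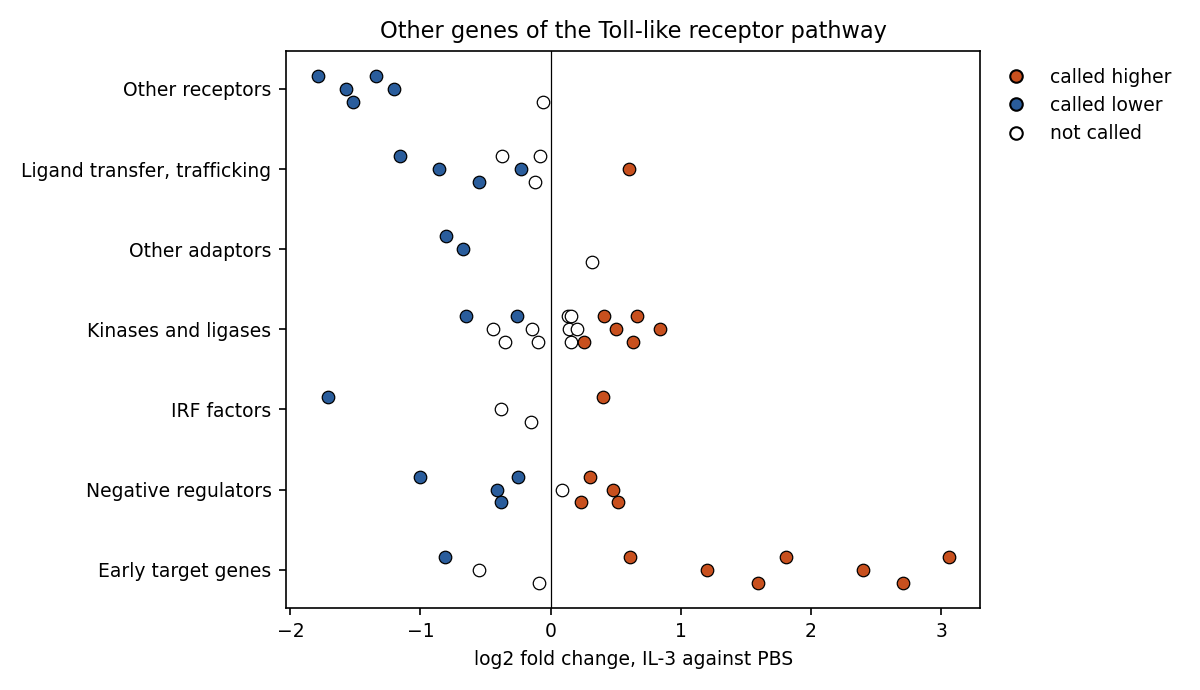
Log2 fold change (IL-3 against PBS) of the 57 tested genes of the pathway list by role, where each point is a gene, orange was called higher, blue was called lower and white was not called. Of the other receptors, 5 of 6 lie below -1, and 7 of the 10 early target genes were called higher, with Il1b at 3.06.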

How the data were processed

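The deposited values were raw counts per gene symbol in 1 table of 6 libraries, and no per-sample column was left unused (0). According to the study's methods and the processing notes, the authors captured poly(A) RNA, amplified whole-transcriptome cDNA, used Cutadapt 3.4 for trimming and Bowtie2 for mapping to reference RNA. No molecular identifiers are described, so PCR copies counted as reads. The methods name the build GRCm38 and the processing notes GRCm39. The table holds no coordinates, and positions and lengths came from GENCODE annotation of GRCm38. The labels name a column kit for RNA, and the methods name direct lysis.

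IL-3 was compared with PBS in edgeR 4.0.16 (R 4.3.3; filterByExpr, TMM scaling, two-sided quasi-likelihood F test, call at adjusted p below 0.05). The SE was derived from F. The procedure was tested on simulated data. Alternatives were other scalings, other filters, DESeq2 1.42.0, limma-voom (limma 3.58.1), a replicate block and leaving out each library. No libraries of a group agreed within sampling noise (chi-square per degree of freedom 2.75 to 4.69). Floors (3 counts) cover counting error only.

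The members and lists were chosen with earlier results of these data known. All 10 members were named, with called pathway genes among the 3 largest changes of each role and the 3 most abundant monocyte and macrophage markers and neutrophil markers. Other genes named, including Tlr8, Tlr13, Ly86, Tirap, Acod1, Adgre1, Ly6g, S100a8, S100a9, Ngp, Pax5, Siglech, Tcf4, Cd79b, Clec9a, Cd209a and Acaa1a, were chosen after their values were seen.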

Additional observations from a re-analysis of the deposited data

How the results depend on the processing

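Under all 14 alternatives, the 6 called members kept their direction and stayed past the threshold, with log2 fold changes of 2.02 to 2.36 for Tlr2, 0.92 to 1.31 for Tlr1, 0.50 to 0.69 for Myd88, -1.51 to -1.26 for Cd14, -1.49 to -1.18 for Tlr7 and -0.66 to -0.42 for Ly96. Scaling by library totals moved the median of all genes by -0.16 on the log2 scale by construction. Genes called then numbered 1699 higher and 5017 lower, against 3003 and 3372 with TMM, and the pathway list gave 15 and 28 against 19 and 19, while Tlr6 turned to -0.06 (adjusted p = 0.82) and Ticam1 to -0.01 (adjusted p = 0.952), both uncalled in either case. Tlr8, also uncalled, turned to 0.05 (adjusted p = 0.815) without PBS replicate 1, and the cause was not tested. With a replicate block, 3 members were called higher and 3 lower, as without it, and all genes gave 2842 and 3247. Equal numbers did not mark pairs of cultures in the data, since their deviations from the group means correlated at -0.00869, -0.0162 and -0.0224. Without single libraries, 2482 to 2787 genes were called higher and 2883 to 3108 lower. Depth limits Tlr9, and also Tlr3, Tlr12 and Lbp, which had few counts.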
